A study of Mus musculus with 30 samples.

Results

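The proteasome subunit genes were taken as every gene of the sperm table made 24 h after the last injection whose symbol starts with Psm, a letter from a to g and a number, with pseudogene names left out. The rule matched 47 of 16242 features at 24 h, and 3 of these genes, Psmd2, Psme4 and Psmf1, were among the 3082 features of the table made at 46 days. Adult C57Bl/6J males, 3 months old at the start, received intraperitoneal tesaglitazar at 10 µg per kg (Tesa-inj) or vehicle, DMSO in saline (Vehicle-inj), 2 times a week for 4 weeks. Tesaglitazar activates the nuclear receptors PPARα and PPARγ. Sperm that had swum out of the cauda epididymis was treated with a lysis buffer against somatic cells, and RNA was sequenced 24 h after the last injection as polyA-selected libraries (4 Tesa-inj, 4 Vehicle-inj) and at 46 days as rRNA-depleted total RNA libraries (7 Tesa-inj, 7 Vehicle-inj). Estimated counts summed to between 15337589 and 27709990 per library at 24 h and between 4538102 and 13513816 at 46 days. At 24 h, libraries 1, 3, 5 and 7 were Tesa-inj and libraries 2, 4, 6 and 8 were Vehicle-inj. The labels do not tie each library to an animal. The methods of the study count animals and mention repeat libraries for other mice only, so 1 animal per library is likely but not certain, and p-values measure the spread between these libraries.

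The proteasome degrades proteins tagged with ubiquitin. Its core particle is a stack of alpha and beta rings that encloses the proteolytic sites, and a regulatory particle with an ATPase base and a lid recognises, unfolds and admits the substrate. Dedicated chaperones assemble both particles, and other activators can replace the regulatory particle. In the male germ line, a testis-specific alpha subunit, Psma8, can stand in for Psma7, and the activator Psme4, known as PA200, takes part in the removal of histones in elongating spermatids. Immune cells and cells exposed to interferon carry an immunoproteasome in which Psmb8, Psmb9 and Psmb10 replace the catalytic subunits Psmb5, Psmb6 and Psmb7.

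At 24 h, no proteasome gene passed the threshold between Tesa-inj and Vehicle-inj after adjustment over all tested genes. All 47 genes exceeded 20 counts in 4 or more libraries, the minimum set for testing. The quasi-likelihood test of edgeR covered 13034 mRNAs and lincRNAs, of which 0.00% passed an adjusted p of 0.05. At an unadjusted p under 0.05, 2 of the 47 (4.26%), Psmd1 and Psmd3, stood beside 2.41% of all tested genes. Both were higher in Tesa-inj, a direction and threshold met by 0.982% of tested genes. The edgeR exact test placed 1 member under an unadjusted p of 0.05 (2.13%, against 2.36% of all tested genes), DESeq2 2 (4.26% against 3.29%) and limma voom with quality weights 3 (6.38% against 7.06%), and none of these tools gave a member an adjusted p under 0.05. The 3 of limma voom were Psmd3, Psmc4 and, lower in Tesa-inj, Psma1. Psmd1 had an unadjusted p of 0.0625 in limma voom. The log2 fold change was above 0 for 30 members (63.8%, against 49.0% of all tested genes) and below 0 for 17, with a median of 0.15 over the members and -0.01 over all tested genes. With library totals in place of TMM scaling, these medians were 0.37 and 0.21. With any 1 library left out, the members above 0 numbered 25 to 33 and their median was 0.06 to 0.28. The SD of log2 levels between libraries of a group had a median of 0.40 over the members and 0.59 over all tested genes, and 35 of the 47 members (74.5%) had a fold change within 0.5 of 0 on the log2 scale, as did 69.2% of all tested genes.

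**Figure D1:**
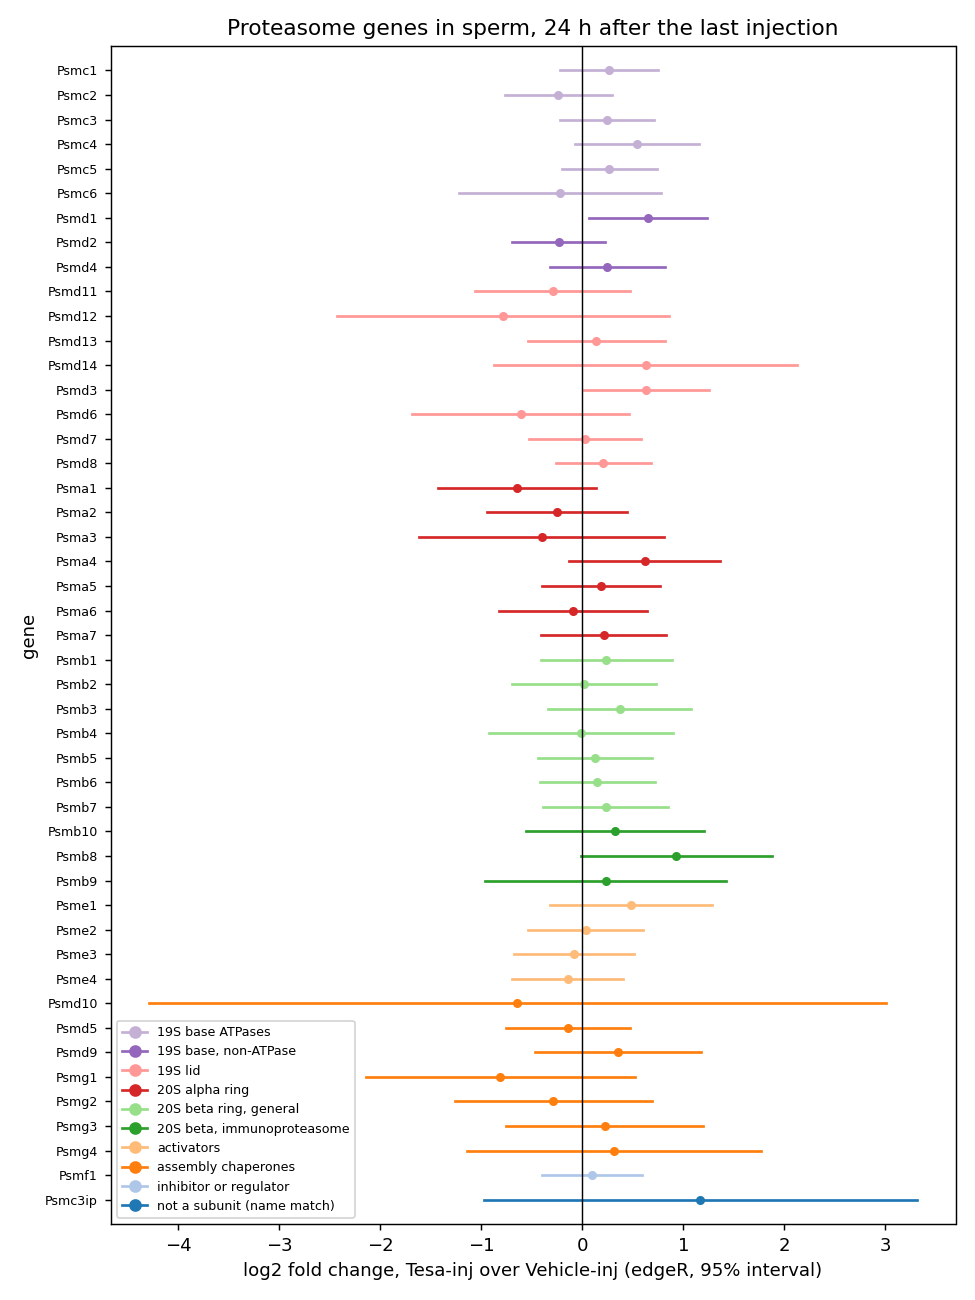
Log2 fold change of each of the 47 genes in sperm at 24 h, Tesa-inj over Vehicle-inj (horizontal axis), with the 95% interval from edgeR as lines and the gene's role as colour. The intervals of Psmd1 and Psmd3 lie above 0 and those of the other members include 0.

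The alpha ring, which gates the entry to the core, was represented by Psma1 to Psma7. Of these 7 genes, 3 had a fold change above 0 and 4 below, none with an unadjusted p under 0.05, and their median was -0.09. Psma8 matched no feature at 24 h by symbol, so the ratio of the testis-specific to the general subunit could not be formed. Psma7, its general counterpart, measured 37.6, 20.2, 29.5 and 27.6 CPM (counts per 1000000 counts, after TMM scaling) in Tesa-inj libraries 1, 3, 5 and 7, and 18.6, 19.7, 35.1 and 25.6 CPM in Vehicle-inj libraries 2, 4, 6 and 8. The groups overlapped over most of their range, and the log2 fold change was 0.21 ± 0.28 (SE). Psma1 measured 5.92, 5.93, 3.30 and 7.94 CPM in Tesa-inj and 8.94, 6.79, 9.36 and 11.0 CPM in Vehicle-inj. Library 7 lay above the lowest Vehicle-inj library, so the groups overlapped, and the log2 fold change of -0.65 ± 0.35 (SE) had an unadjusted p of 0.0945 in edgeR. Psma4 measured 18.6, 9.04, 12.6 and 13.4 CPM in Tesa-inj and 8.44, 5.34, 8.68 and 12.4 CPM in Vehicle-inj. Here library 3 lay below library 8, and the estimate was 0.62 ± 0.34 (SE), with an unadjusted p of 0.0951 in edgeR. These subunits of a single ring had estimates on opposite sides of 0, neither apart from it by this test.

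The beta ring carries the proteolytic sites. Its 7 general members, Psmb1 to Psmb7, had fold changes between -0.01 and 0.37 on the log2 scale, 6 above 0 and 1 below, with a median of 0.15 and none under an unadjusted p of 0.05. Their summed level ran from 132 to 175 CPM in Tesa-inj and from 104 to 193 CPM in Vehicle-inj. The Vehicle-inj libraries therefore enclosed the whole Tesa-inj range.

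The immunoproteasome subunits were each measured in all 8 libraries, and all 3 had fold changes above 0, none under an unadjusted p of 0.05. Psmb8, the chymotrypsin-like subunit, measured 9.07, 7.27, 14.2 and 4.24 CPM in Tesa-inj and 4.51, 4.61, 6.06 and 3.05 CPM in Vehicle-inj. Library 5 was the highest and library 7 lay among the Vehicle-inj values, so the groups overlapped. The log2 fold change was 0.93 (95% interval -0.02 to 1.88), with an unadjusted p of 0.0536 in edgeR. With any 1 library left out, this p ran from 0.0181 to 0.186. Psmb9 measured 3.33, 2.55, 1.97 and 6.70 CPM in Tesa-inj and 3.68, 1.78, 4.41 and 2.55 CPM in Vehicle-inj. Its log2 fold change of 0.23 ± 0.53 (SE) rested on library 7 and was -0.25 without it. Psmb10 measured 6.60, 3.16, 5.47 and 7.57 CPM in Tesa-inj and 5.35, 3.80, 5.63 and 3.41 CPM in Vehicle-inj, with a log2 fold change of 0.33 ± 0.40 (SE).

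The general counterparts overlapped between groups as well. Psmb5 measured 19.9, 15.6, 21.9 and 16.3 CPM in Tesa-inj and 22.1, 12.2, 18.6 and 14.8 CPM in Vehicle-inj. Psmb6 measured 21.3, 20.2, 14.3 and 26.9 CPM in Tesa-inj and 20.6, 13.9, 20.9 and 19.3 CPM in Vehicle-inj. Psmb7 measured 14.2, 17.4, 16.6 and 16.7 CPM in Tesa-inj and 8.36, 13.7, 19.4 and 13.8 CPM in Vehicle-inj. The ratio of an immunoproteasome gene to its general counterpart does not depend on scaling. The log2 ratio of Psmb8 to Psmb5 averaged -1.20 with an SD of 0.54 over 4 Tesa-inj libraries and -1.89 with an SD of 0.45 over 4 Vehicle-inj libraries, a difference of 0.69 with p = 0.143 and adjusted p = 0.571 in a two-sided exact permutation test over libraries. The differences were 0.02 for Psmb9 to Psmb6 (exact p = 0.943) and -0.01 for Psmb10 to Psmb7 (exact p = 1). With Psme4 to Psme3, 4 ratios were tested. The smallest p the design allows is 0.0286, which adjusts to 0.114 for a lone ratio, so no single ratio could have passed 0.05 here.

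Immunoproteasome genes are also expressed by leukocytes, and all 21 leukocyte markers were present at 24 h. They summed to 2329, 1461, 2341 and 2747 CPM in Tesa-inj libraries 1, 3, 5 and 7 and to 1994, 1371, 2220 and 1705 CPM in Vehicle-inj libraries 2, 4, 6 and 8, none of the 21 at 0 in any library. Most of this was Cd52, at a mean of 1644 CPM, which epididymal epithelium also expresses, so the sum is no measure of leukocytes alone. The other 20, summed after seeing this, gave 440, 390, 285 and 365 CPM in Tesa-inj and 578, 342, 291 and 327 CPM in Vehicle-inj. The groups overlapped both ways, and 8 of the 21 markers had a fold change above 0, none under an unadjusted p of 0.05. Late spermatid and sperm markers, led by Odf1, were present for 15 of 15 genes and summed to between 3956 and 12817 CPM. Epididymal epithelium markers were present for 7 of 12 genes, led by Crisp1, and summed to between 518 and 2100 CPM, highest in Vehicle-inj library 8. Blood markers (4 of 5, led by Hba-a2) summed to 53.5 to 270 CPM, smooth muscle markers (6 of 6, led by Tagln) to 16.7 to 85.3 CPM, highest in Tesa-inj library 5, and general epithelium markers (5 of 5, led by Krt18) to 186 to 272 CPM. The fold change was above 0 for 5 of 15 sperm, 3 of 7 epididymal, 0 of 4 blood, 5 of 6 smooth muscle and 3 of 5 general epithelium markers, none under an unadjusted p of 0.05, and the summed levels of the groups overlapped for each list. RNA of cells other than sperm was thus measurable in every polyA library, and its part in the proteasome levels was not tested. In such bulk samples, fewer cells of a type and less RNA per cell cannot be told apart.

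In the base of the regulatory particle, the ATPases Psmc1 to Psmc6 form the ring that unfolds substrates. Of these 6, 4 had a fold change above 0 and 2 below, with a median of 0.25 and none under an unadjusted p of 0.05. Psmc4 measured 18.7, 19.5, 15.2 and 22.5 CPM in Tesa-inj and 15.3, 8.25, 16.9 and 11.7 CPM in Vehicle-inj. Library 5 lay below libraries 2 and 6, and the log2 fold change was 0.54 ± 0.28 (SE), with an unadjusted p of 0.0794 in edgeR.

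The base also holds Psmd1 and Psmd2, large scaffold subunits, and the ubiquitin receptor Psmd4. Psmd1 measured 26.3, 23.3, 26.7 and 18.9 CPM in Tesa-inj and 9.78, 14.6, 20.2 and 16.1 CPM in Vehicle-inj. Only Vehicle-inj library 6 lay above the lowest Tesa-inj library, library 7, and library 2 was the lowest of all 8. Its estimate was 0.65 on the log2 scale (95% interval 0.06 to 1.24), the smallest p of the members (unadjusted p = 0.0332, adjusted p = 1 in edgeR). Psmd2 measured 27.8, 31.1, 24.2 and 32.4 CPM in Tesa-inj and 38.4, 36.6, 34.6 and 26.2 CPM in Vehicle-inj. Its estimate was on the other side of 0 from that of Psmd1, -0.23 ± 0.21 (SE) on the log2 scale, with an unadjusted p of 0.289 in edgeR, and it was 0.04 with library totals, where the median of all genes was 0.21.

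Of the 8 lid genes, 5 had a fold change above 0 and 3 below, with a median of 0.08. Psmd3, a structural subunit of the lid, measured 24.2, 30.4, 29.3 and 36.5 CPM in Tesa-inj and 11.1, 23.0, 25.1 and 18.3 CPM in Vehicle-inj. Vehicle-inj library 6 lay just above Tesa-inj library 1, and library 2 was again the lowest. On the log2 scale the estimate was 0.64 (95% interval 0.01 to 1.26; unadjusted p = 0.0457, adjusted p = 1 in edgeR). When any 1 library was left out, the unadjusted p ran from 0.0161 to 0.0691 for Psmd1 and from 0.0282 to 0.125 for Psmd3, and between 0 and 4 members lay under 0.05. None did without library 2, 3 or 5, 1 did without library 1, 4 or 8, 2 without library 7 and 4 without library 6. Psmd14, the deubiquitinase of the lid, and Psmd12 were thinly counted in single libraries, with 0.334 CPM of Psmd14 in library 2 and 0.246 CPM of Psmd12 in library 5. These lid genes are singled out here after their values were seen.

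**Figure D2:**
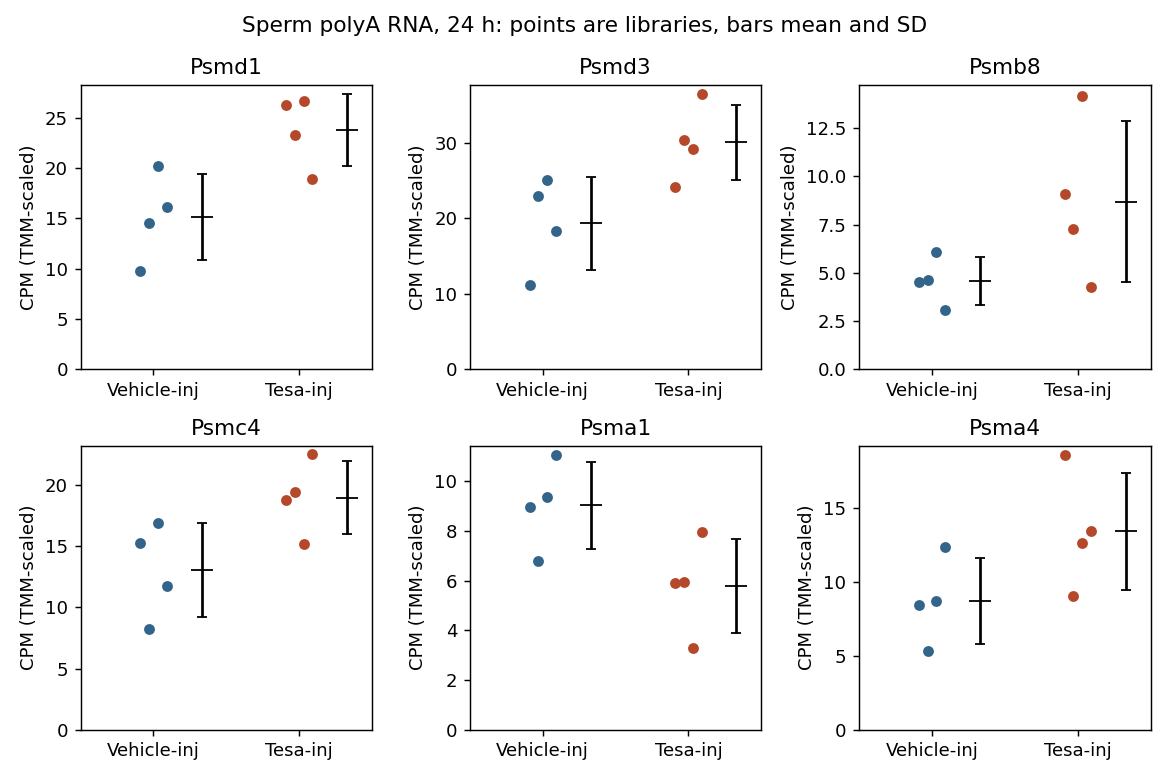
Level in CPM (vertical axes, from 0) of the 6 members with the smallest p at 24 h, with 1 point per library for Vehicle-inj and Tesa-inj and bars for the mean and SD of 4 libraries. The groups overlap for each of the 6 genes, in Psmd1 by library 6 at 20.2 CPM against library 7 at 18.9 CPM.

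Assembly chaperones were represented by Psmd5, Psmd9, Psmd10 and Psmg1 to Psmg4, 3 with a fold change above 0 and 4 below, none under an unadjusted p of 0.05. Psmd10, known as gankyrin, was uneven between libraries, and is singled out after its values were seen. It had 0 counts in libraries 1, 2 and 5, where 3 counts would have amounted to 0.185, 0.251 and 0.148 CPM, a limit that covers counting error only. In the other libraries it measured 6.36 CPM in library 3, 1.70 in library 4, 13.7 in library 6, 9.68 in library 7 and 9.68 in library 8. Both groups held libraries at 0 and libraries well above it, and the 95% interval of the log2 fold change ran from -4.29 to 3.00. Psmd5, another base chaperone, lay between 5.91 and 7.76 CPM in all 8 libraries. Psmg1 had the lowest estimate of the members, -0.81 ± 0.59 (SE) on the log2 scale.

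Among the activators, Psme1 and Psme2 form a ring together and Psme3 forms one alone. Of Psme1 to Psme4, 2 had a fold change above 0 and 2 below, with a median of -0.02 and none under an unadjusted p of 0.05. Psme4 measured 27.8, 32.7, 34.8 and 20.9 CPM in Tesa-inj and 23.6, 33.6, 30.6 and 40.7 CPM in Vehicle-inj, so that the highest and the second lowest library were Vehicle-inj. Its log2 fold change at 24 h was -0.15 ± 0.25 (SE). Psme3 measured 13.9, 15.1, 16.6 and 14.9 CPM in Tesa-inj and 20.3, 10.0, 14.4 and 19.3 CPM in Vehicle-inj. The log2 ratio of Psme4 to Psme3 differed by -0.11 between groups (adjusted p = 1, exact permutation test). Psmf1, an inhibitor of the core particle, measured 16.8, 15.1, 22.8 and 20.9 CPM in Tesa-inj and 20.1, 16.1, 17.6 and 16.7 CPM in Vehicle-inj, with a log2 fold change of 0.10 ± 0.22 (SE).

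The rule also matched Psmc3ip by name, which encodes a meiotic recombination factor and is no proteasome subunit. It was the 1 member of 47 (2.13%) whose libraries did not overlap between groups, against 3.06% of all tested genes. It measured 2.34, 2.25, 3.06 and 3.46 CPM in Tesa-inj and 0, 0.809, 1.94 and 2.12 CPM in Vehicle-inj, where library 2 had no count. The unadjusted p was 0.252 in edgeR.

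The members' summed share varied between the libraries of each group. As a share of all counts, the members measured, in unscaled CPM, 639, 616, 757 and 1244 in Tesa-inj libraries 1, 3, 5 and 7 and 477, 459, 860 and 787 in Vehicle-inj libraries 2, 4, 6 and 8. TMM factors ran from 0.771 in library 2 to 1.57 in library 7, and after TMM scaling the sums were 778, 652, 701 and 791 CPM in Tesa-inj and 618, 570, 808 and 685 CPM in Vehicle-inj. Library 6 was then the highest and library 4 the lowest, both Vehicle-inj. Levels were not compared between genes, since no transcript lengths were used.

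Genes that act with the proteasome were counted by direction at 24 h. Of the proteasome-associated genes 7 of 12 tested had a fold change above 0, of the shuttle factors 4 of 9, of the Vcp unfoldase and its cofactors 5 of 9, of the Nrf1 and Nrf2 regulators of proteasome genes 3 of 5, of the ubiquitin and activating-enzyme genes reported here 2 of 5 and of the ubiquitin-conjugating enzymes 14 of 29. Of these 69 partners only Nsfl1c, a cofactor of Vcp, had an unadjusted p under 0.05 (1.45%, against 2.41% of all tested genes), and with any 1 library left out this p ran from 0.00800 to 0.0783. It measured 14.5, 11.2, 18.8 and 12.7 CPM in Tesa-inj and 4.43, 7.20, 12.0 and 7.53 CPM in Vehicle-inj, overlapping through libraries 3 and 6, with a log2 fold change of 0.87 ± 0.34 (SE) and an adjusted p of 1 in edgeR. The next smallest p-values belonged to Ube2v1 and Ube2v2, partners of the conjugating enzyme Ube2n, with log2 fold changes of 0.68 ± 0.31 and -1.04 ± 0.52 (SE). Of the partners reported here, Rps27a, Ubb and Ube2n had the most counts, with log2 fold changes of 0.12 ± 0.35, 0.06 ± 0.25 and -0.15 ± 0.45 (SE).

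At 46 days, 1 library, Tesa-inj library KG8-12, stood apart, and each member is given with and without it. Of 2263 tested genes, 604 had their highest level in KG8-12, against 29 to 334 in the other 13 libraries. TMM factors ran from 0.0981 in KG8-02 to 8.15 in KG8-14, so depth for mRNAs differed widely. Libraries KG8-11 to KG8-14 also stood apart when Lars2 counts were divided by those of RP23-81C12.3, at 0.763 to 1.03 against 0.124 to 0.218 in KG8-01 to KG8-10, a pair of features chosen after seeing the data.

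No member passed an adjusted p of 0.05 at 46 days, and 0.00% of the 2263 tested genes did. At an unadjusted p under 0.05 in edgeR, 2 of the 3 members, Psmd2 and Psme4, stood beside 5.74% of all tested genes, and both were higher in Tesa-inj, as were 4.95% of tested genes. The edgeR exact test also placed 2 members there (6.50% of all tested genes) and DESeq2 and limma voom 0 (4.77% and 5.92%), with no member past an adjusted p of 0.05 by any of them. The exact test gave 12 of the 2263 tested genes an adjusted p under 0.05. No member had groups that did not overlap (0.0442% of tested genes).

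Psmd2 had a lowest, median and highest level of 0, 2.23 and 37.1 CPM over the 7 Tesa-inj libraries and of 1.51, 1.85 and 2.81 CPM over the 7 Vehicle-inj libraries. The highest value was that of KG8-12, and the other 6 Tesa-inj libraries reached at most 3.21 CPM. The 0 was that of KG8-02, where 3 counts would have amounted to 3.49 CPM, so a level like that of the other libraries was not detectable at this depth. Psmd2 had more than 20 counts in KG8-03, KG8-07, KG8-10, KG8-11, KG8-12 and KG8-14 only, the minimum of 6 libraries for testing. It therefore entered the test only through the count of KG8-12, and was kept in the fit without that library. The log2 fold change was 1.72 ± 0.72 (SE; unadjusted p = 0.0294, adjusted p = 0.750 in edgeR), and it was 0.13 without KG8-12 (unadjusted p = 0.600). With library totals it was -0.27, where the median of all tested genes was -1.03.

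Psme4 had a lowest, median and highest level of 2.33, 3.82 and 57.7 CPM in Tesa-inj and of 1.97, 3.18 and 5.25 CPM in Vehicle-inj. Again the highest value was that of KG8-12, with 146 counts, and the next Tesa-inj library had 4.58 CPM. The log2 fold change was 1.69 ± 0.67 (SE; unadjusted p = 0.0240, adjusted p = 0.750 in edgeR), and it was 0.12 without KG8-12 (unadjusted p = 0.579). With library totals it was -0.32. With a term for KG8-11 to KG8-14 in the fit, the median estimate of the 3 members was 0.99, and 0 members had an unadjusted p under 0.05. The estimates of both genes at 46 days were as small as 0.05 and 0.08 within KG8-01 to KG8-10, and 2.91 and 2.90 within KG8-11 to KG8-14, a set of 4 libraries that holds KG8-12.

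Psmf1 was not high in KG8-12. It had a lowest, median and highest level of 2.37, 3.40 and 6.98 CPM in Tesa-inj and of 2.53, 3.28 and 3.82 CPM in Vehicle-inj, and KG8-12 was the lowest of all 14 libraries. This lowest value and the highest, that of KG8-02, each rested on 6 counts. The log2 fold change was 0.05 ± 0.22 (SE), and 0.0361 without KG8-12.

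**Figure D3:**
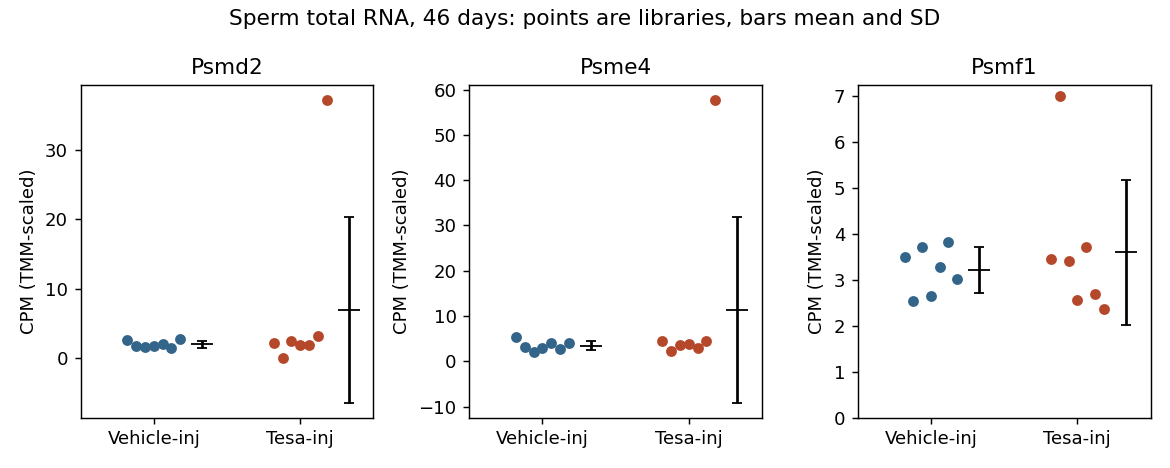
Level in CPM (vertical axes) of the 3 members in sperm total RNA at 46 days, with 1 point per library for Vehicle-inj and Tesa-inj and bars for the mean and SD of 7 libraries. KG8-12 is the single high point of Psmd2 (37.1 CPM) and Psme4 (57.7 CPM) and is not high for Psmf1.

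Partner genes were high in the same library. The 3 listed ubiquitin and activating-enzyme genes reported from this table, Ubb, Uba1 and Uba1y, summed to 90.1 CPM in KG8-12 and to between 18.6 and 40.9 CPM in the other 13 libraries, and all 3 had a fold change above 0. Ubb measured 45.4 CPM in KG8-12 and between 3.40 and 18.6 CPM elsewhere, with a log2 fold change of 1.05 ± 0.46 (SE; unadjusted p = 0.0368 in edgeR) that was 0.38 without KG8-12. It was the only partner of 17 tested under an unadjusted p of 0.05 (5.88%, against 5.74% of all tested genes). The activating enzyme Uba1, the conjugating enzyme Ube2r2 and the shuttle factor Rad23b were highest in KG8-12 too, at 41.5, 16.2 and 35.6 CPM, and their log2 fold changes were 0.45 ± 0.30, 0.54 ± 0.28 and 0.68 ± 0.42 (SE), and 0.16, 0.22 and 0.11 without KG8-12. Uba1y, the Y-linked activating enzyme, was instead lowest there, at 3.16 CPM, with a log2 fold change of 0.38 ± 0.22 (SE), and 0.45 without KG8-12. At 24 h the log2 fold change of Uba1y was -0.83 ± 0.43 (SE), with an unadjusted p of 0.0820 in edgeR. Its 24 h levels were 1.51 to 2.65 CPM in Tesa-inj and 3.34 to 4.21 CPM in Vehicle-inj. The groups thus did not overlap, as for 3.06% of all genes tested at 24 h. Of the Nrf regulators at 24 h, Mafg did not overlap either, at 22.4 to 27.7 CPM in Tesa-inj and 19.6 to 21.9 CPM in Vehicle-inj. Nor did Nfe2l2, at 8.94 to 13.01 CPM in Tesa-inj and 13.03 to 16.26 CPM in Vehicle-inj. Their unadjusted p-values were 0.224 and 0.353 in edgeR. In the other lists at 46 days, 3 of 5 proteasome-associated genes, 2 of 2 shuttle factors, 1 of 1 Vcp cofactor, 1 of 1 Nrf regulator and 3 of 5 conjugating enzymes had a fold change above 0, where 55.3% of all tested genes did.

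KG8-12 was not high in the cell type markers of this table. Late spermatid and sperm markers, 14 of 15 in the table and led by Prm2, summed to 501 CPM there and to between 434 and 1031 CPM elsewhere. Of the 21 leukocyte markers 1, H2-Eb1, was in the table, at 3.16 CPM in KG8-12, the lowest of the 14 libraries. The listed markers of epididymal epithelium, blood, smooth muscle and general epithelium matched no feature at 46 days by symbol, so they could not be compared in KG8-12.

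No member passed the edgeR interaction term of treatment and time over all 22 libraries, nor did any of the 2143 genes tested (0.00%). By this edgeR term, the effect at 46 days minus that at 24 h was 1.69 ± 0.90 for Psmd2 (SE), 1.60 ± 0.88 for Psme4 and -0.26 ± 0.30 for Psmf1 on the log2 scale. The unadjusted p was 0.0752, 0.0829 and 0.405 in edgeR, and the adjusted p 0.982, 0.982 and 0.999. Without KG8-12 the differences were 0.24, 0.18 and -0.18. When library totals scaled the counts they were -0.31, -0.31 and -1.52, and the median of all 2143 genes moved from 0.12 to -0.98, so a sign reached this way is not particular to these genes. Time and library type cannot be told apart in this comparison.

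Promoter sequences from RefSeq (GRCm38.p6, 250 bases before to 50 after the start) were matched by symbol for 40 of the 47 genes, with 43 windows, and a gene counts if any of its windows holds the motif. The start is that of a transcript, and 10 of the 43 windows lie at a start inside the gene and not at its outer end. The letters TGANNNNGC are a loose form of the core of the antioxidant response element, which Nrf1 and Nrf2 bind. On either strand they were in 23 of the 40 (57.5%) and in 45.0% of all 27025 genes with a promoter. Of the 8766 of these genes that were tested at 24 h, 48.2% held them. CCAAT was in 14 of the 40 (35.0%), against 41.1% and 42.7%. A further 11 motifs were looked at after seeing the data, and all are given. TTCCGG was in 52.5% of the members, 16.7% of all genes and 31.1% of those tested, and CTTCCGG, which contains it, in 37.5%, 9.93% and 19.8%. The palindrome of nuclear respiratory factor 1, which is not the Nrf1 named above, was in 17.5%, 5.19% and 11.5% with any base at its centre, and in 5.00%, 1.07% and 2.32% with A there. CACGTG was in 10.0%, 8.09% and 11.7%. TGACGT was in 10.0%, 8.37% and 13.6%, and TGACGTCA, which contains it, in 0%, 2.03% and 3.67%. AAAATGGCG was in 5.00%, 0.544% and 1.12%, and AAGATGGCG in 5.00%, 1.64% and 3.74%. TGANTCAGC, a case of the first motif, was in 2.50%, 1.37% and 1.24%, and TGACTCAGC in 0%, 0.503% and 0.445%. These are matches of letters and were not tested.

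The promoters of the 3 genes measured at both times are shown because Psmd2 and Psme4 were high together in KG8-12 and Psmf1 was not. Capitals mark TGANNNNGC on either strand, present 1 time, in Psme4, and CCAAT was in none of them. They lie at chr16:20651402-20651701 (plus strand, Psmd2), chr11:30771525-30771824 (plus strand, Psme4) and chr2:151741261-151741560 (minus strand, Psmf1). The start used lies 530 bases inside the gene for Psmd2 and 2889 for Psmf1, so other transcripts of these genes may use another promoter.
Psmd2: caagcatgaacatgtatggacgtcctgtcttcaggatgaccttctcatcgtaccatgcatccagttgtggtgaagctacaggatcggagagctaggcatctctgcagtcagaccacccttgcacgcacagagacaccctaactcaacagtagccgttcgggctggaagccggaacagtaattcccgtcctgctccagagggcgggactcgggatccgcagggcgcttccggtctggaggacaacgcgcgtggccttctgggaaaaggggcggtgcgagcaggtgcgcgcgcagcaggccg
Psme4: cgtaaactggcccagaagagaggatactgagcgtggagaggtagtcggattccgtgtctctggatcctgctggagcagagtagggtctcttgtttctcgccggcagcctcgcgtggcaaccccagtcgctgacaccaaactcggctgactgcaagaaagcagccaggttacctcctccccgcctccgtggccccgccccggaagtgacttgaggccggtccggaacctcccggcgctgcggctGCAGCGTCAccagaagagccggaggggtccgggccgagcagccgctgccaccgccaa
Psmf1: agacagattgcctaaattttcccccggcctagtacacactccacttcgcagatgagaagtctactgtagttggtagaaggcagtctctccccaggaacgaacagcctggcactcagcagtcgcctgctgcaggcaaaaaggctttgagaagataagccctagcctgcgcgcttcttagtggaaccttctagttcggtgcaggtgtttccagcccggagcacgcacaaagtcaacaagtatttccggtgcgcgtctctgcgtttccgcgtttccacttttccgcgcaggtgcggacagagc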

How the data were processed

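The members and gene lists were chosen with earlier results of these data known. The deposited tables hold estimated counts per gene or repeat family, which the authors made with Trim Galore 1.16 and Salmon 0.11.2 (GRCm38, from the submitters' processing notes). Counts were rounded. In R 4.3.3, edgeR 4.0.16 (quasi-likelihood, TMM over all features) tested mRNAs and lincRNAs with more than 20 counts in at least 4 (24 h) or 6 (46 days) libraries, with two-sided Benjamini-Hochberg adjusted p-values at 0.05. The tables hold no RNA class, so it was rebuilt from RefSeq biotypes and name patterns, and pseudogenes were moved out after a first fit. Of the 13034 genes tested at 24 h, 10884 were in RefSeq. Alternatives were the edgeR exact test, DESeq2 1.42.0, limma 3.58.1, other scalings, no filter, all RNA classes and each library left out, with the genes tested kept. Isoform ratios of counts plus 0.5 had an exact permutation test. Named were the 6 members with the smallest p at 24 h, those at 46 days, the isoform pairs, and 3 partners by p and 3 by counts. Some partner genes are not reported here, nor counted. Others singled out were chosen after seeing values. The fit was tested on simulated data. All 47 symbols matched RefSeq.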

Additional observations from a re-analysis of the deposited data

Results flagged for a closer look

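Of 108 sets of libraries of 1 group (1 member or ratio each), 5 held a library far from the others of its group, its gap to the nearest of them, divided by the group's range, being above Dixon's 95% critical value. Chance gives about 1 in 20 such sets. At 46 days, Tesa-inj library KG8-12 measured 37.1 CPM for Psmd2, against at most 3.21 CPM in the other Tesa-inj libraries, and 57.7 CPM for Psme4, against at most 4.58 CPM. In Psmf1, Tesa-inj library KG8-02 measured 6.98 CPM, against 2.37 to 3.71 CPM, on 6 counts. At 24 h, Vehicle-inj library 6 measured 14.8 CPM for Psmd9, against 5.93 to 7.44 CPM. The log2 ratio of Psmb10 to Psmb7 was -0.64 in Vehicle-inj library 2, against -2.01 to -1.78 in the other Vehicle-inj libraries.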

How the results depend on the processing

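Under each alternative and with each library left out, 0 members passed the adjusted threshold at 24 h and at 46 days. The interaction was refitted with library totals and with each library left out only, and 0 members passed. The count of members under an unadjusted p of 0.05 at 24 h (2) was 1 with the edgeR exact test and with library totals, and 0 to 4 with 1 library left out. The 1 was Psmd1 with the edgeR exact test and Psmb8 with library totals. With library totals in edgeR, Psmd1 and Psmd3 had unadjusted p-values of 0.0612 and 0.0656. At 46 days (2) the count was 0 with DESeq2, limma voom, library totals, a term for KG8-11 to KG8-14 and, added after seeing the data, KG8-01 to KG8-10 alone, and 0 to 2 with 1 library left out, 0 without KG8-12 and 1 without KG8-13. The median log2 fold change at 24 h was 0.37 with library totals and 0.06 to 0.28 with 1 library left out.

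Library totals moved the median of all genes to 0.21 at 24 h and -1.03 at 46 days, and these estimates changed sign: at 24 h to 0.13 for Psme3 and 0.0371 for Psmd2, and at 46 days to -0.27 for Psmd2, -0.32 for Psme4, -1.16 for Psmf1, -0.80 for Ubb, -0.93 for Ube2r2, -0.61 for Uba1y, -0.44 for Uba1 and -0.77 for Rad23b. In the interaction they gave -0.31 for Psmd2 and -0.31 for Psme4, where the median of all genes moved from 0.12 to -0.98. For these and the other sign changes the cause was not tested. Ubb at 24 h was -0.0103 with limma voom, and Psmf1 at 46 days was -0.0379 with DESeq2 and -0.48 within KG8-11 to KG8-14, added after seeing the data. With 1 library left out, the ranges were -0.23 to 0.0731 for Psme3, -0.25 to 0.45 for Psmb9, -0.00229 to 0.31 for Psmb6, -0.0643 to 0.37 for Rps27a, -0.0666 to 0.23 for Ubb and -0.43 to 0.26 for Ube2n at 24 h, and -0.11 to 0.11 for Psmf1 at 46 days. Log2 ratio differences ranged from -0.19 to 0.15 for Psmb9 to Psmb6, -0.16 to 0.30 for Psmb10 to Psmb7 and -0.39 to 0.12 for Psme4 to Psme3.

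Psmd2 and Psme4 at 46 days were 0.12 and 0.12 with DESeq2 and 0.21 and 0.28 with limma voom. DESeq2 ran with its default settings, and whether its treatment of outlying counts altered those of KG8-12 was not examined. The summed members at 46 days had a log2 ratio of 1.33 after TMM scaling, where KG8-12 held 97.2 CPM and the other Tesa-inj libraries 8.28 to 10.5 CPM. In unscaled CPM these sums ran from 0.913 to 50.7 in Tesa-inj and from 6.32 to 79.8 in Vehicle-inj. The highest was then Vehicle-inj library KG8-14, with KG8-12 at 30.8, so the excess of this sum in KG8-12 appears only after TMM scaling. Counts set against each other within a library need no scaling. KG8-12 held 94 counts of Psmd2, 146 of Psme4 and 6 of Psmf1, where KG8-14 held 220, 311 and 236. Level per coding kilobase was not run. No paired analysis was possible because the libraries carry no shared replicate numbers. Counts as low as 0 to 2 in KG8-02 limit what the 46-day table can show.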
